A study of Homo sapiens with 9 samples.

Results

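The HOX genes were described here in MDA-MB-231 cells, a human triple-negative breast cancer cell line, in which the level of the acyl-protein thioesterase APT1 (gene symbol LYPLA1) had been lowered or raised. Members were the genes whose symbol is HOX, a cluster letter from A to D and a number, and that have at least 1 transcript annotated as protein coding. This gave 39 of the 58219 genes in the files, with 11 in cluster A, 10 in cluster B, 9 in cluster C and 9 in cluster D. There were 3 groups of 3 RNA sequencing libraries. Control cells carried a lentivirus with a scrambled RNA, shAPT1 cells a lentiviral short hairpin RNA against APT1 followed by 72 h of puromycin selection, and APT1wt cells a lentivirus that expresses wild-type APT1. All were breast-derived cells of this 1 line, grown in DMEM with 10% serum. The labels name no group with an empty overexpression vector, so in the APT1wt comparison the virus and the APT1 protein cannot be told apart. They do not say whether replicates were separate cultures, so the tests measure the spread between these libraries alone, and that spread may be technical.

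HOX genes encode transcription factors that bind DNA through a homeodomain and give cells their position along the head-to-tail axis of the embryo. They lie in clusters in which the order of the genes on the chromosome follows the order of their domains along the body, so low position numbers are called anterior and high numbers posterior. Genes with the same number in different clusters are paralogues with nearly identical DNA-binding helices. Polycomb complexes keep HOX genes silent where they are not used, Trithorax complexes keep them active, and the TALE proteins of the PBX, MEIS and PKNOX families bind DNA together with HOX proteins. Adult breast tissue and breast cancer cells keep part of the embryonic HOX pattern, and HOXB9, HOXB7, HOXD3 and HOXC8 have each been studied in breast cancer cells for a part in motility or invasion.

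Only 7 of the 39 members had enough reads for a test, and because HOX genes are alike and their transcripts overlap, the sequence each shares with other genes was counted. Of the distinct stretches of 31 bases in each gene's transcripts, HOXB9 shared 0.39% with another gene on the same strand, HOXC8 shared 0%, and HOXB3 shared 6.72%. HOXD4 shared 78.17% and HOXD3 61.95%, in both cases almost wholly with AC009336.19. This is a single readthrough transcript (chr2:176151085-176173097, plus strand) that joins exons of HOXD4 and HOXD3, so the authors' quantification could divide their reads with it. It received 4.4, 0 and 7.3 reads in the control libraries, 0, 2.9 and 0 in shAPT1, and 10.0, 0 and 0 in APT1wt. HOXC6 shared 12.85% of its stretches with HOXC4 and 7.78% with the readthrough RP11-834C11.14. HOXD1 shared 49.31% with RP11-387A1.6, a gene on the opposite strand that had at most 1 read in any library. The sources used here do not state whether the counting used strand.

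Promoter windows were available from RefSeq (GRCh38.p14, 250 bases before to 50 after each listed start) for 3 tested members, HOXD1, HOXD3 and HOXD4, and for 17 members that were not tested. The parts that lie upstream of the GENCODE gene start are printed for 3 members. These are HOXD1, an expressed member, and HOXD8 and HOXA4, which had at most 1 read in any library. HOXD1 had the most CG of the tested members with a window, and not every HOX window was CG-rich. The printed parts are examples of CG-rich sequence at expressed and near-silent HOX genes. Each is written 5′ to 3′ on the strand of its gene, with CG dinucleotides in capitals.
HOXD1, chr2:176188418-176188578, plus strand: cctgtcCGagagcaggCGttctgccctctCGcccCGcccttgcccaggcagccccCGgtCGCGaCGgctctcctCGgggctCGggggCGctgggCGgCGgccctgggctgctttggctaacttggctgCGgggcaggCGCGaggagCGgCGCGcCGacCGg
HOXD8, chr2:176129455-176129693, plus strand: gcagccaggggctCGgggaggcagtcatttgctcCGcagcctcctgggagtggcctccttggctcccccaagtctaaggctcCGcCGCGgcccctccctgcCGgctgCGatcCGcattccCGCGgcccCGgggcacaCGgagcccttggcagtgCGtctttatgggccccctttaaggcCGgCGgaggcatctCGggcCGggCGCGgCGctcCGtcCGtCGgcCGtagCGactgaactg
HOXA4, chr7:27130800-27131007, minus strand: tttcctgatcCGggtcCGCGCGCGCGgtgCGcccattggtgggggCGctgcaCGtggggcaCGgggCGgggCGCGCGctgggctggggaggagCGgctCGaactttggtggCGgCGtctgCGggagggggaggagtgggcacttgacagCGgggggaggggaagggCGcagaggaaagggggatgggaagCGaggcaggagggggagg
The HOXD1 stretch holds 13 CG per 100 bases, that of HOXD8 10.5 and that of HOXA4 10.6. Over whole 300-base windows, the 3 tested members had a median of 25 CG (from 4 for HOXD4 to 36 for HOXD1), and the 24 windows of the other members a median of 21.5 (0 to 44). The median over all 35116 windows was 14. The motif TATAAA, searched on both strands, was in 0 of the 3 windows of tested members, in 5 of the 24 other HOX windows (20.83%) and in 11.53% of all windows. These are counts of letters over windows, not genes: HOXC4 and HOXC5 have the same window, and HOXA3 and HOXA10 have several each. They carry no test.

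The libraries held 12381931 to 18667383 reads assigned to transcripts. LYPLA1, the targeted gene, was at 87.1, 92.7 and 80.5 TPM (a length-scaled share of all transcripts) in control, 38.3, 30.5 and 36.7 in shAPT1, and 168.9, 170.9 and 169.9 in APT1wt, so every library matched its label. The markers of this mesenchymal-like line were high, with VIM at 1800 to 2370 TPM and CD44 at 659 to 923, and the luminal markers ESR1 and PGR stayed at or under 0.219 TPM. Other luminal or epithelial markers were present, with KRT18 at 223 to 403 TPM, KRT8 at 179 to 371, ERBB2 at 27.5 to 37.3, EPCAM at 7.42 to 10.9, GATA3 at 6.71 to 11.2 and CDH1 at 0.383 to 2.76. The 8 summed to a mean of 467 TPM in the control libraries, 712 in shAPT1 and 638 in APT1wt. Of 6 leukocyte markers, PTPRC and CD3E stayed at or under 0.265 TPM, while LCP1 ranged from 9.46 to 71.9 and CD74 from 184 to 463. The 6 summed to a mean of 434 TPM in the control libraries, 248 in shAPT1 and 292 in APT1wt. Fibroblast markers summed to 7.7 to 17.7 TPM, with means of 8.76 in the control libraries, 15.1 in shAPT1 and 11.5 in APT1wt. Endothelial markers summed to 40 to 105 TPM, with means of 45.5, 66.0 and 102 in the same order. The part of any other cell type in the HOX values was not tested.

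HOX genes were a small part of the transcriptome. Together the 39 members reached 21.06, 19.28 and 19.88 TPM in the control libraries, 19.37, 20.36 and 22.3 in shAPT1, and 17.38, 14.48 and 14.62 in APT1wt. The means were 20.1 ± 0.90 (SD, n = 3), 20.7 ± 1.49 and 15.49 ± 1.64 TPM. All 3 APT1wt libraries lay below all libraries of the other groups, while control and shAPT1 overlapped. HOXB9, the most abundant member, stood at the 29.4th percentile of the 13204 protein-coding genes with at least 10 reads in at least 1 library, whose median level was 18.4 TPM. Levels in a bulk culture cannot separate fewer expressing cells from less RNA per cell.

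**Figure D1:**
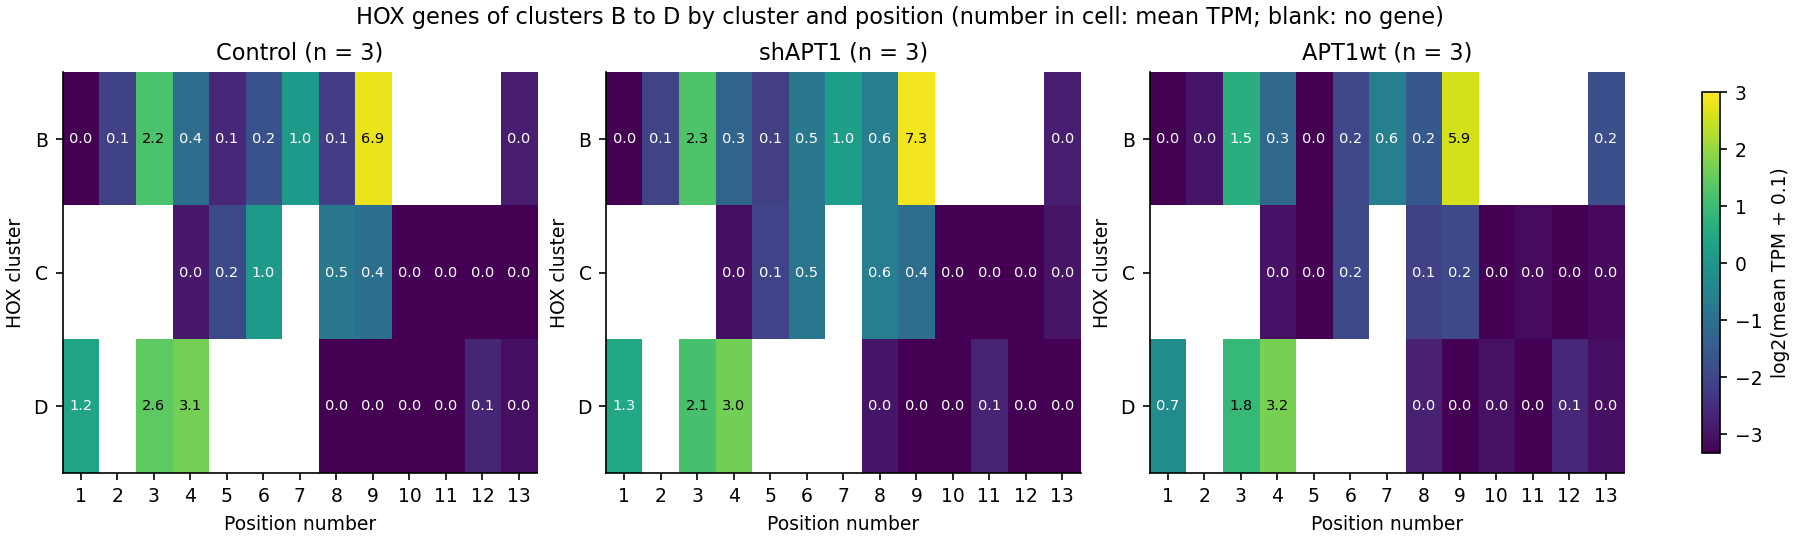
Mean TPM of the HOX genes of clusters B, C and D in each group (n = 3 libraries), laid out by cluster (rows) and position number (columns). Colour is log2(mean TPM + 0.1), the number in each cell is the mean TPM, and blank cells have no gene. Cluster B and the anterior end of cluster D hold most of the signal, and HOXB9 is highest in each group.

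Levels differed between the clusters and along them. Cluster A was nearly silent: without HOXA13 its other 10 genes had 5 reads in all 9 libraries together. Of these, 6 had 0 reads in every library, among them HOXA4, HOXA7 and HOXA9. HOXA13, a posterior gene of limb and urogenital development, was the exception, with 14 reads over the control libraries, 38 over shAPT1 and 20 over APT1wt. Cluster D was divided. Its anterior genes HOXD1, HOXD3 and HOXD4 were expressed, whereas HOXD8 to HOXD13 had 11 reads in all libraries together. Cluster C had low levels from HOXC5 to HOXC9, and HOXC10 to HOXC13 together had 4 reads. Cluster B had reads from most of its length, and HOXB1 was the only member of it at 0 throughout.

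In all, 10 members had 0 reads in every library (6 in cluster A, HOXB1, HOXC10, HOXC12 and HOXD9), and 13 more stayed under 3 reads in each library. These 13 were HOXA2, HOXA5, HOXA10, HOXA11, HOXB2, HOXC4, HOXC11, HOXC13, HOXD8, HOXD10, HOXD11, HOXD12 and HOXD13. For the 10 at 0, a count of 3 reads in a library would correspond to 0.0715 to 0.479 TPM, depending on the gene and library, so lower levels were not detectable at this depth. This limit covers counting error only. The remaining 16 members reached 3 reads somewhere, 6 did so in all 9 libraries (HOXB3, HOXB4, HOXB9, HOXD1, HOXD3 and HOXD4), and 7 passed the filter on low counts, these 6 and HOXC6. The level was at least 1 TPM in every library for HOXB3, HOXB9, HOXD3 and HOXD4.

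Cluster B gave 52.4% to 64.4% of the HOX signal in TPM, cluster D 27.3% to 40.9%, cluster C 1.87% to 11% and cluster A 0.304% to 1.6%. Cluster B summed to 11.81, 10.11 and 11.07 TPM in the control libraries, 10.61, 11.98 and 14.36 in shAPT1, and 9.29, 8.13 and 9.27 in APT1wt. Cluster D summed to 6.88, 7.40 and 6.51 TPM in the control libraries, 6.79, 6.75 and 6.08 in shAPT1, and 7.10, 5.65 and 4.86 in APT1wt, with overlap between all groups. Cluster C summed to 2.31, 1.6 and 2.19 TPM in the control libraries, 1.78, 1.30 and 1.63 in shAPT1, and 0.763, 0.501 and 0.274 in APT1wt. Its APT1wt libraries lay below all 6 others, and the difference rests on few reads, 72.2 over the control libraries and 25.7 over APT1wt. Cluster A was at 0.0640 to 0.325 TPM over all libraries. These sums are descriptions with no test.

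**Figure D2:**
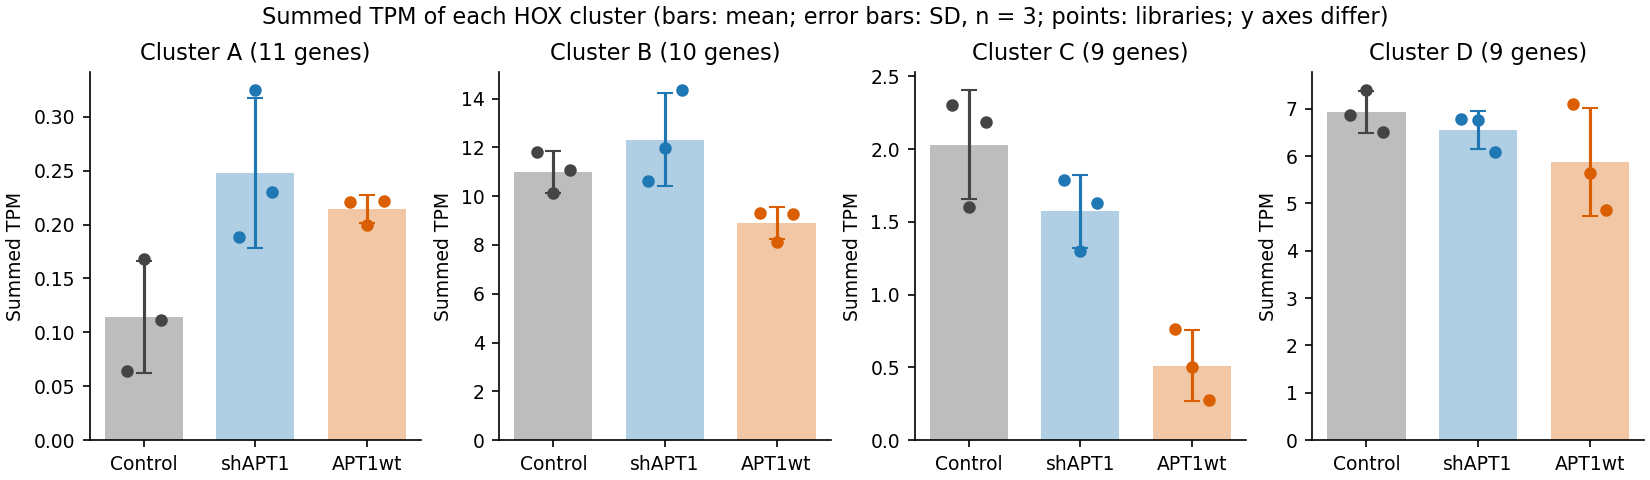
Summed TPM of each HOX cluster in each library (points), with the group mean (bars) and SD (error bars, n = 3); the y axes differ between panels. The 3 APT1wt libraries lie between 0.274 and 0.763 TPM in cluster C, under all 6 other libraries, while the groups overlap in cluster D.

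By position, the posterior genes (9 to 13) summed to 7.52 ± 0.43 TPM in control (SD, n = 3), almost all of it HOXB9, the anterior genes (1 to 3) to 6.10 ± 0.54 and the central genes (4 to 8) to 6.45 ± 0.98. The corresponding sums in APT1wt were 6.54 ± 0.40, 4.06 ± 0.71 and 4.89 ± 0.65. Among paralogue groups, group 9 led with 7.29 TPM in the control libraries, followed by group 3 with 4.78 and group 4 with 3.51. Groups 3 and 4 each had 2 members among the tested genes, one from cluster B and one from cluster D. The 5 most abundant members, HOXB9, HOXD4, HOXD3, HOXB3 and HOXD1, made up 74.8% to 85.4% of the HOX signal in each library.

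The anterior members came first in the order of the body axis. HOXD1 (chr2:176188579-176190907), a group 1 gene of hindbrain and sensory neuron patterning, was at 0.980, 1.22 and 1.36 TPM in the control libraries, 1.21, 1.49 and 1.15 in shAPT1, and 0.587, 0.902 and 0.715 in APT1wt. Each APT1wt library was below each library of the other groups. HOXB3 (chr17:48548870-48604912), a group 3 gene of the hindbrain and of blood-forming cells, was at 1.88, 1.85 and 2.87 TPM in the control libraries, 2.11, 1.86 and 2.96 in shAPT1, and 1.51, 1.5 and 1.45 in APT1wt. In TPM the APT1wt libraries were again lowest, and the third replicate was highest in both other groups. Its reads overlapped, with 29, 31 and 58.6 in control and 43, 23 and 39 in APT1wt. A transcript of 398 bases held 1.20 TPM from 3 reads in shAPT1 replicate 3, and 0.37 in shAPT1 replicate 2 and APT1wt replicate 1. One of 565 bases held 0.59 and 0.91 TPM in control replicates 1 and 3 and 0.57 in APT1wt replicate 2. HOXD3 (chr2:176136612-176173102), a group 3 gene known for raising integrin expression in endothelial cells, was at 2.92, 2.40 and 2.42 TPM in the control libraries, 2.28, 2.31 and 1.82 in shAPT1, and 2.68, 1.47 and 1.24 in APT1wt. Its shAPT1 libraries and 2 of 3 APT1wt libraries lay below control, and APT1wt replicate 1 lay within the control range.

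Among the central members, HOXD4 alone was above 1 TPM in every library. HOXD4 (chr2:176151222-176153226), a group 4 gene of the hindbrain and neck vertebrae, was at 2.92, 3.61 and 2.74 TPM in the control libraries, 3.30, 2.88 and 2.95 in shAPT1, and 3.69, 3.16 and 2.71 in APT1wt. The 3 groups overlapped. HOXB4 (chr17:48575513-48580111), its paralogue, known for expanding blood stem cells, ranged from 0.258 to 0.454 TPM over all libraries, also with overlap. HOXC6 (chr12:53990624-54030823), a thoracic gene that has been studied in mammary tissue, had 9, 14 and 11 reads in control, 6, 8 and 13.4 in shAPT1, and 8.5, 1 and 2 in APT1wt. In TPM it was at 0.864, 0.981 and 1.01, then 0.341, 0.418 and 0.609, then 0.313, 0.0745 and 0.0973. Control lay above both other groups in TPM, but in reads the shAPT1 libraries overlapped control.

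For HOXC6 and HOXD3 the length-scaled level depended on which transcript received the reads. In control replicate 3, 0.501 of the 1.01 TPM of HOXC6 was assigned to a transcript of 358 bases, and in control replicate 1 0.344 TPM to one of 538 bases, whereas no shAPT1 or APT1wt library had TPM on either. HOXD3 had TPM on a coding transcript of 428 bases in 2 libraries, at 0.267 in shAPT1 replicate 1 and 1.12 in APT1wt replicate 1. In the latter this was 1.12 of 2.68 TPM, against 1.37 TPM on the transcript of 2303 bases that carried 1.47 and 1.24 TPM in the other APT1wt libraries.

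HOXB9 (chr17:48621159-48626356), the posterior member that led the family, was at 7.11, 6.69 and 6.88 TPM in the control libraries, 7.25, 6.85 and 7.80 in shAPT1, and 6.38, 5.3 and 6.0 in APT1wt. The APT1wt libraries were the lowest, by a margin that was small next to the level. In control the order was HOXB9 at 6.90 ± 0.21 TPM (SD, n = 3), HOXD4 at 3.09 ± 0.46, HOXD3 at 2.58 ± 0.30, HOXB3 at 2.20 ± 0.58 and HOXD1 at 1.19 ± 0.19. HOXB9 stood clear of the rest, the ranges of HOXD4, HOXD3 and HOXB3 overlapped those of their neighbours, and HOXD1 lay below all 3. These were also the 5 genes with the highest mean TPM over all 9 libraries.

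**Figure D3:**
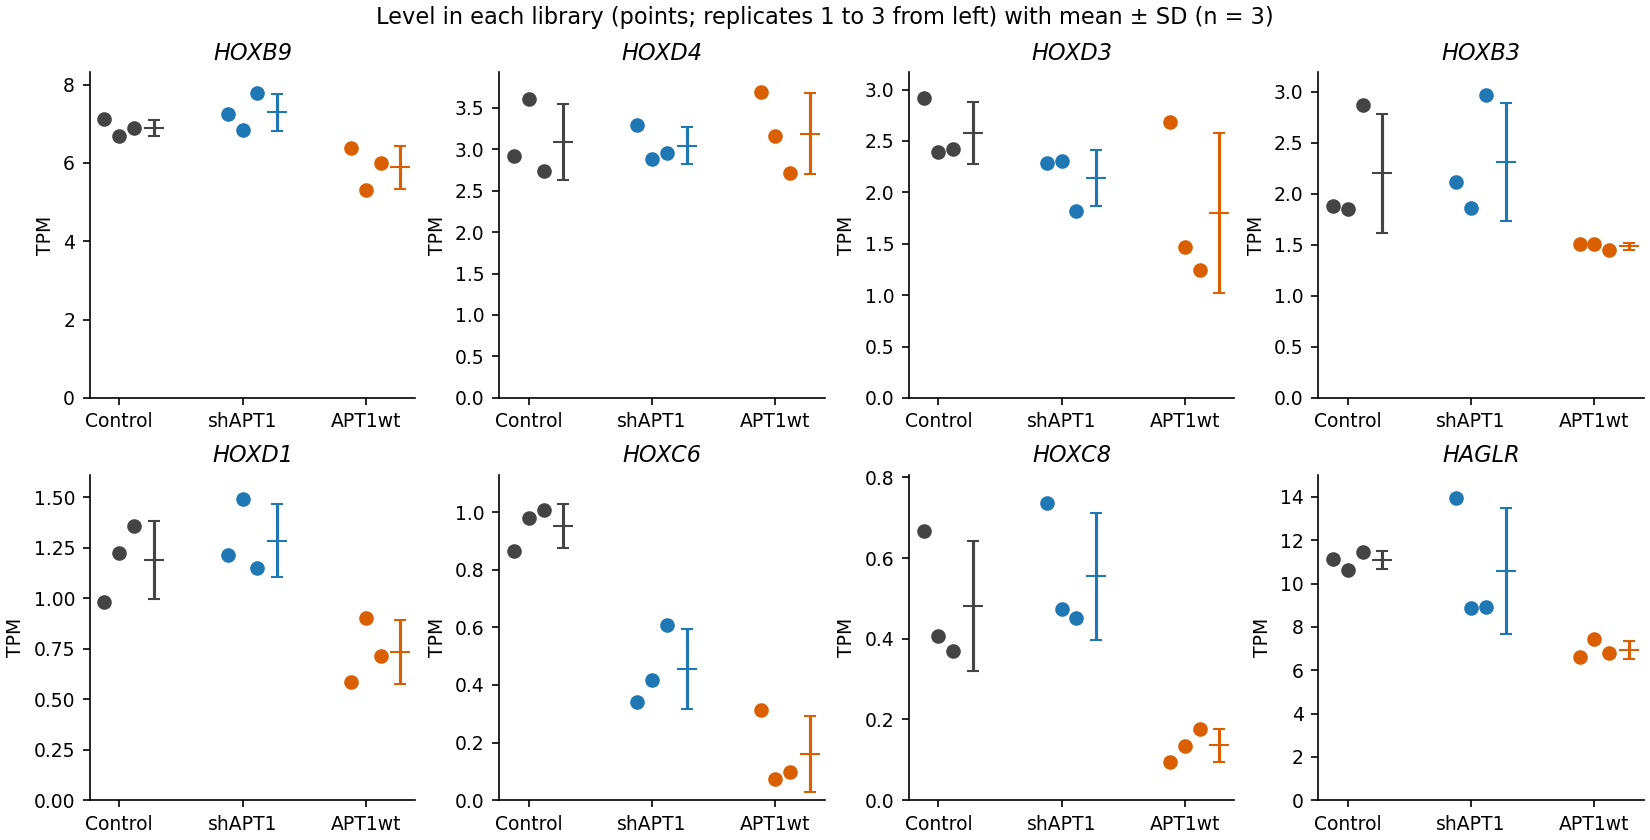
TPM in each library (points, replicates 1 to 3 from left in each group) with mean ± SD (n = 3) for 7 HOX genes and for HAGLR, the antisense RNA of the HOXD cluster. The APT1wt libraries are lowest for HOXB9, HOXB3, HOXD1, HOXC6, HOXC8 and HAGLR, the groups overlap for HOXD4, and APT1wt replicate 1 lies within the control range for HOXD3.

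No tested HOX gene passed the test on APT1 knockdown. In shAPT1 against control, 0 of the 7 tested members passed an adjusted p of 0.05 in edgeR's quasi-likelihood test (adjusted over all 15233 genes tested), where 24.4% of all tested genes passed. None reached an unadjusted p under 0.05, and DESeq2 and limma-voom also called 0. The median log2 fold change was -0.08 over the 7, with 3 above and 4 below 0, and -0.0039 over all tested genes. HOXB9 was the most precisely measured, with a log2 fold change of 0.01 ± 0.11 (SE) and a 95% interval of -0.22 to 0.25. HOXD3 had -0.38 ± 0.20 (adjusted p = 0.191), HOXB3 0.25 ± 0.22 (0.471) and HOXD4 -0.08 ± 0.20 (0.819). HOXC6 had -0.56 ± 0.47 (adjusted p = 0.430), with an interval from -1.56 to 0.45 that leaves a wide range of values. With transcript length in the model the HOXC6 value was -1.12 (adjusted p = 0.111). HOXB4 had -0.32 ± 0.34 (adjusted p = 0.540) and HOXD1 0.05 ± 0.27 (0.915).

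On APT1 overexpression HOXD3 fell, HOXC6 passed as lower at few reads, and no tested member rose. HOXC6 entered the test through the 3 control libraries, where it was highest, and 1 shAPT1 library, so its call and the counts and medians that include it are a description and support nothing. The 7 had a median log2 fold change of -0.38, with 6 below 0, against -0.004 over all 15233 genes, of which 23.4% passed in either direction and 11.6% as lower. HOXD3 fell by 0.79 ± 0.21 on the log2 scale (SE), 0.577-fold with a 95% interval of 0.423 to 0.787 and adjusted p = 0.0136. Its reads were 60.3, 44 and 56.9 in control and 44.5, 27 and 35 in APT1wt, and 2 of the 3 APT1wt libraries had fewer reads than any control library although APT1wt replicate 3 was the deepest library of all. HOXC6, with a mean under 1 TPM in every group, had a log2 fold change of -1.69 ± 0.54 (0.310-fold, interval 0.138 to 0.694, adjusted p = 0.0362). HOXD1 had -0.70 ± 0.29 (adjusted p = 0.0958, unadjusted p = 0.0286 from edgeR), HOXB3 -0.38 ± 0.23 (0.276) and HOXB9 -0.21 ± 0.11 (0.21). HOXD4, the neighbour of HOXD3, had 0.06 ± 0.20 (adjusted p = 0.862) and HOXB4 -0.14 ± 0.33 (0.813).

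Both calls depended on the processing. The HOXD3 call did not pass when transcript length entered the model (log2 fold change -0.53, adjusted p = 0.266), without control replicate 1 (-0.67, 0.059) or without APT1wt replicate 3 (-0.68, 0.0698). It passed in 17 of 22 alternatives, among them one, chosen after seeing the data, that added the reads of AC009336.19 to HOXD3 (-0.76, 0.0277). The HOXC6 call passed in 11 of 19 alternatives and was lost when control replicate 1 (adjusted p = 0.0635), 2 (0.134) or 3 (0.064), or APT1wt replicate 2 (0.122) or 3 (0.158), was left out. Both genes were below 0 in each alternative that gave a value.

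**Figure D4:**
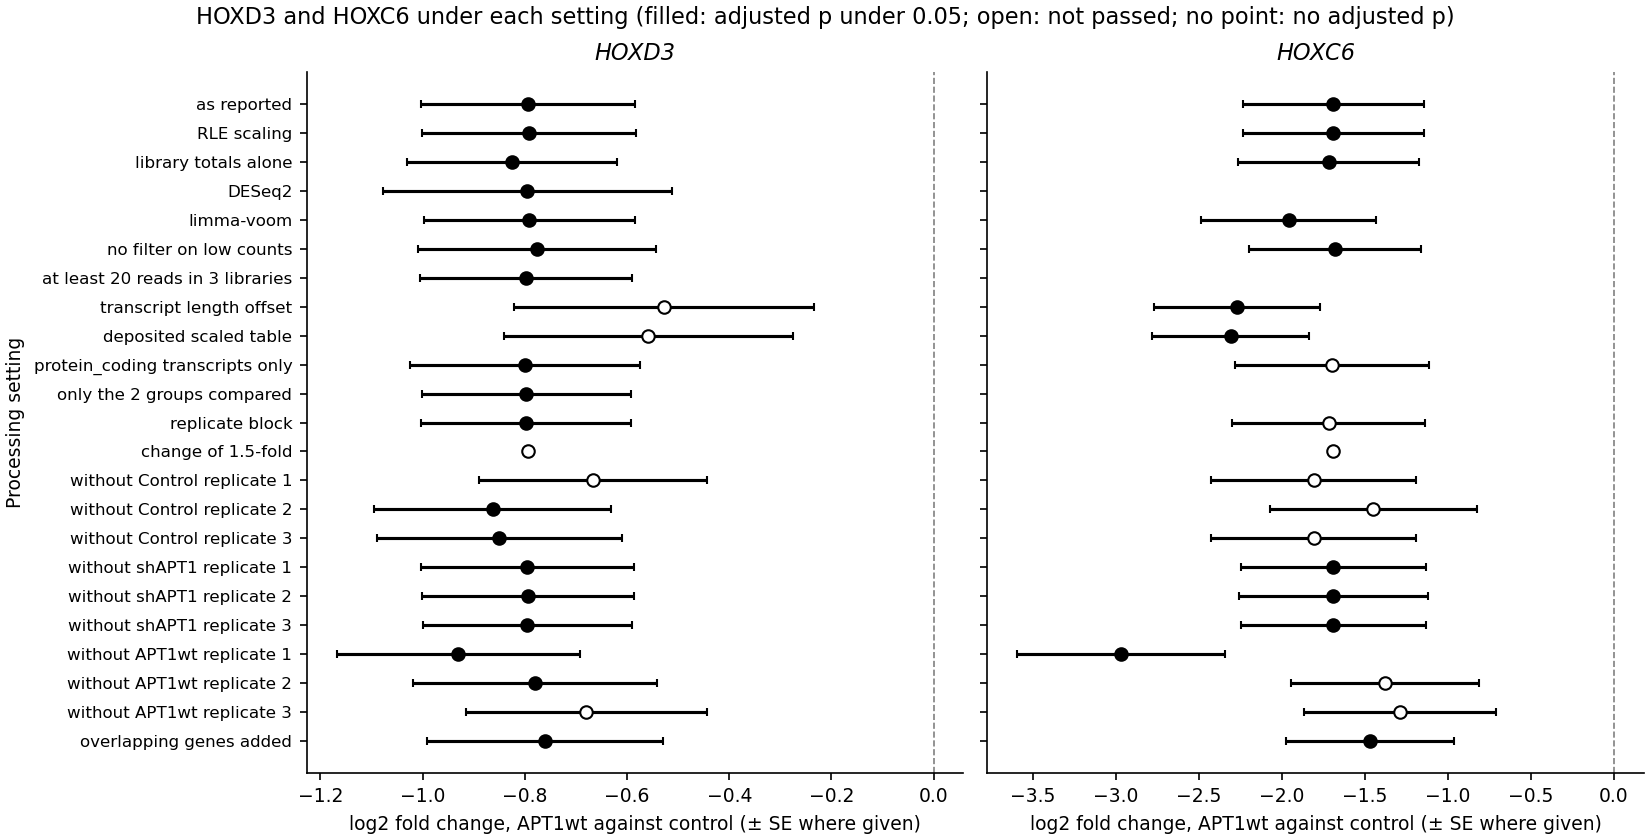
Log2 fold change of HOXD3 (left) and HOXC6 (right) in APT1wt against control under each processing setting (rows), with ± SE where the test gives one; filled points have an adjusted p under 0.05, open points do not, and a missing point had no adjusted p. All values lie below 0, from -0.93 to -0.53 for HOXD3 and from -2.97 to -1.29 for HOXC6.

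The direct comparison of the 2 engineered lines called none of the 7 members, where 25.1% of tested genes passed. Their median log2 fold change for shAPT1 against APT1wt was 0.41, with 5 above 0, against 0.0012 over all tested genes. At an unadjusted p under 0.05 there were 2, HOXD1 with 0.75 ± 0.28 (adjusted p = 0.0647) and HOXB3 with 0.62 ± 0.23 (0.0583). HOXD3 had 0.41 ± 0.21 (adjusted p = 0.178) and HOXC6 1.13 ± 0.57 (0.165). HOXB9 had 0.22 ± 0.11 (adjusted p = 0.169), HOXD4 -0.14 ± 0.20 (0.648) and HOXB4 -0.19 ± 0.34 (0.734). The response of HOXD3 and HOXC6 to overexpression was therefore not shown to differ from that to knockdown. DESeq2 and limma-voom also called 0 here. The comparisons with control share the control libraries.

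**Figure D5:**
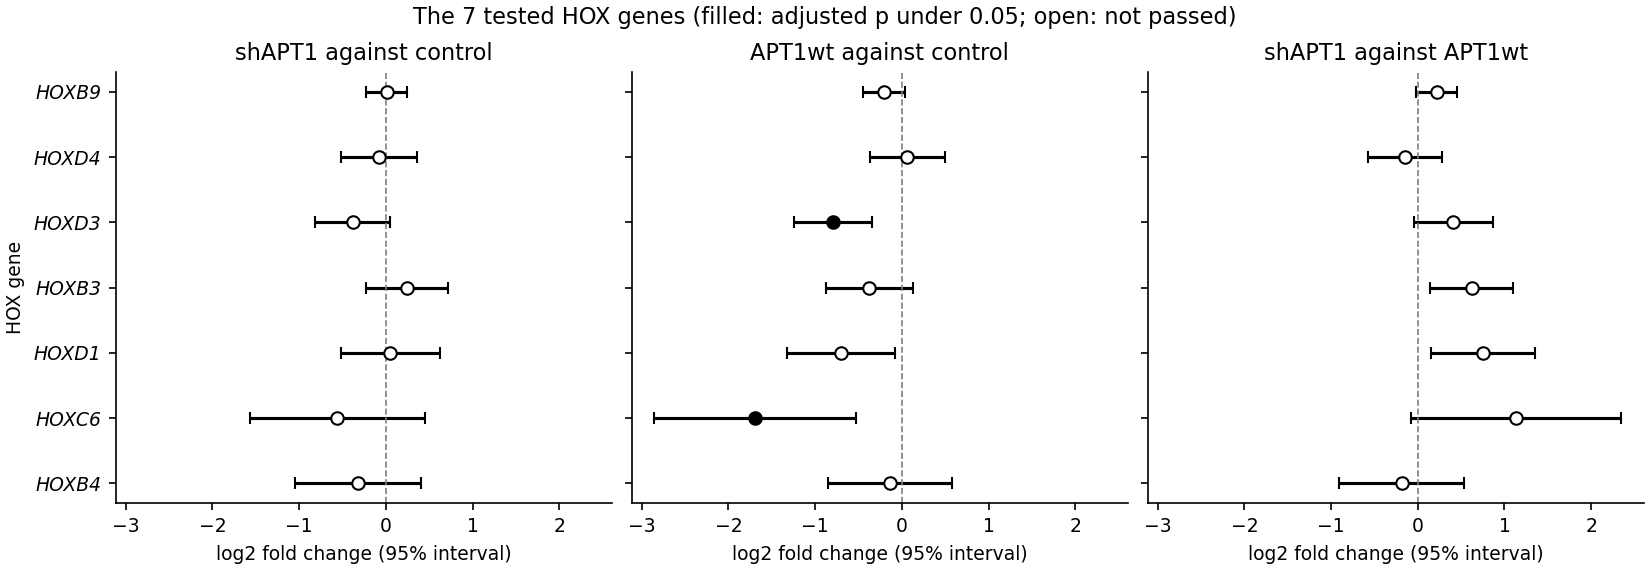
Log2 fold change (points) with 95% interval (lines) of the 7 tested HOX genes in each comparison from edgeR; filled points have an adjusted p under 0.05. HOXD3 and HOXC6 are filled in APT1wt against control, and no point is filled in the comparisons that involve shAPT1.

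HOXC8, a thoracic gene next to HOXC6 whose 31-base stretches were all its own, was left out of the main test by the filter on low counts. It had 11, 6 and 7 reads in control, 11, 10 and 9 in shAPT1, and 2, 2 and 4 in APT1wt, which is 0.666, 0.406 and 0.370, then 0.737, 0.474 and 0.453, then 0.0948, 0.135 and 0.177 TPM. All APT1wt libraries lay below all others. Without the filter, its log2 fold change in edgeR was -1.73 ± 0.60 for APT1wt against control (adjusted p = 0.0389, where 4.96% of 34479 genes passed as lower) and 1.85 ± 0.58 for shAPT1 against APT1wt (adjusted p = 0.0168, 5.58% higher). It was singled out after its values were seen. Unfiltered p-values were smaller at a like SE than those of the main fit, so these calls do not stand on the footing of the main test. For HAGLR in APT1wt against control, edgeR gave an unadjusted p of 1.83e-06 (SE 0.125) without the filter and 0.000179 (SE 0.123) in the main fit. Counting the unfiltered fit, 8 settings gave HOXC8 a value, the rest each leaving out 1 library. It passed in 6 for APT1wt against control, 7 for shAPT1 against APT1wt and 0 for shAPT1 against control. HOXC8 entered the filtered fits only through control and shAPT1 libraries, where it was highest, so these calls support nothing.

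The other 8 members with at least 3 reads somewhere but no main test were HOXA13, HOXB5, HOXB6, HOXB7, HOXB8, HOXB13, HOXC5 and HOXC9. HOXB7, studied in breast cancer for its part in motility, was at 1.78, 0.784 and 0.304 TPM in the control libraries, 0, 2.11 and 1.00 in shAPT1, and 0.465, 0.335 and 0.883 in APT1wt, a spread within groups as wide as that between them. Its coding transcript was at 0 to 0.671 TPM over all libraries. The rest lay on noncoding transcripts of 478 and 528 bases, with at most 6.14 reads on either in a library. HOXB13, a prostate and tail-bud gene, had 2, 0 and 2 reads in control, 3, 1 and 0 in shAPT1, and 4.1, 7 and 10.1 in APT1wt. Without the filter it was lower in shAPT1 than in APT1wt (-2.30 ± 0.78, adjusted p = 0.032 in edgeR, where 6.04% of genes passed as lower), and its difference between APT1wt and control did not pass (2.13 ± 0.79, adjusted p = 0.0619). No other setting gave HOXB13 a value, and the limit on unfiltered p-values given for HOXC8 applies here too. HOXA13 was at 0.0640, 0.168 and 0.112 TPM in control and at 0.189, 0.284 and 0.230 in shAPT1, without overlap. Its log2 fold change without the filter was 1.20 ± 0.50 (adjusted p = 0.119 in edgeR). HOXB5 and HOXC5 had no read in the APT1wt libraries, against 4 and 7.8 reads over the control libraries. In shAPT1 HOXB5 had 2, 3 and 3 reads, and HOXC5 had 6, 0 and 0. The readthrough RP11-834C11.14, whose span contains HOXC5, had 2.2, 0 and 0 reads in control. It had 0, 5.0 and 3.1 in shAPT1, and 1.3, 0 and 2.0 in APT1wt. Whether reads of HOXC5 were assigned to it was not tested. HOXB6, HOXB8 and HOXC9 had at most 9 reads in a library.

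Of 30 listed RNAs of the clusters that are not members, 28 were in the files and 1 was tested. HAGLR (chr2:176164051-176188958, minus strand) is a long noncoding RNA on the strand opposite to the HOXD genes. Its span overlaps the start of HOXD1 and part of HOXD3. HAGLR was more abundant than any HOX gene in every library. It ranged from 10.65 to 11.48 TPM over the control libraries, and was at 13.95, 8.89 and 8.93 in shAPT1, and 6.62, 7.42 and 6.79 in APT1wt. Every APT1wt library was below every other. HAGLR fell in APT1wt by 0.62 ± 0.12 on the log2 scale (0.653-fold, 95% interval 0.544 to 0.783, edgeR adjusted p = 0.00236) and did not pass in shAPT1 (-0.07 ± 0.12, 0.707). It was higher in shAPT1 than in APT1wt (0.54 ± 0.12, edgeR adjusted p = 0.00496). That call passed in 19 of 22 alternatives and was lost with a transcript length offset (adjusted p = 0.0527), in the deposited table (0.057) and in the test against a change of 1.5-fold.

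HAGLR and HOXD1 start close together on opposite strands: the RefSeq promoter window of HOXD1 (chr2:176188418-176188717), part of which is printed above, overlaps 2 of the 4 HAGLR windows, by 195 and 102 bases. Beside the values of HAGLR in APT1wt stand -0.70 for HOXD1, -0.79 for HOXD3 and 0.06 for HOXD4, so the 4 tested transcripts of this stretch did not all have the same sign. The span of HAGLR overlaps those of HOXD1 and HOXD3, and whether the counting used strand is not known. Whether reads of HAGLR were assigned to HOXD1 or HOXD3, or the reverse, was not tested. The HAGLR call in APT1wt passed in 21 of 22 alternatives, the exception being the test against a change of 1.5-fold. The noncoding RNAs HOTAIR of cluster C and HOTAIRM1 of cluster A stayed at or under 0.0361 TPM in every library.

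Genes that flank the clusters were called in both directions, near the share over all tested genes in the comparisons with control. Of 34 tested flanking genes, 3 were higher and 5 lower in shAPT1, and 6 higher and 2 lower in APT1wt, beside 24.4% and 23.4% of all tested genes called. In shAPT1 against APT1wt, 6 of the flanking genes were higher and 8 lower, beside 25.1% of all tested genes called. Their median log2 fold change was -0.01 in shAPT1 and -0.04 in APT1wt. Beside cluster D, LNPK, an endoplasmic reticulum shaping protein, had -0.40 ± 0.07 in shAPT1 (edgeR adjusted p = 0.000799), and 4 of 9 tested neighbours rose in APT1wt (AGPS 0.41, ATF2 0.27, HNRNPA3 0.23 and ATP5G3 0.19), where HOXD3 and HAGLR fell. ATF2 was lower in shAPT1 (-0.30). Beside cluster C, CBX5, a heterochromatin protein, was lower in shAPT1 (-0.24) and higher in APT1wt (0.22), and COPZ1 was lower in shAPT1 (-0.28). Beside cluster A, SKAP2 (0.43) and TAX1BP1 (0.36) rose in shAPT1, and JAZF1 (-0.57) and HIBADH (-0.28) fell in APT1wt. Beside cluster B, ATP5G1 fell (-0.51) and CBX1 rose (0.23) in shAPT1, and COPZ2 rose in APT1wt (1.00).

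Chromatin regulators of HOX genes included calls in both directions. Of 30 tested Polycomb genes, 2 were higher and 3 lower in shAPT1 (24.4% of all tested genes were called), and 2 higher and 2 lower in APT1wt (23.4% of all), with medians of -0.03 in both. The largest were PHC1, a subunit of the Polycomb repressive complex PRC1, with 1.06 ± 0.16 in shAPT1 (edgeR adjusted p = 0.000236), and CBX6, a chromodomain subunit, with -0.49 ± 0.08 (0.000402). PHF19 (-0.38) and RNF2 (0.27) also passed there. In APT1wt, RBBP7 (-0.32), PHF1 (-0.26) and ASXL1 (0.23) were among those that passed. RBBP7 passed as lower in shAPT1 too (-0.21). Of 21 tested Trithorax and activator genes, 2 were higher and 6 lower in shAPT1, and 4 higher and 4 lower in APT1wt, beside the same 24.4% and 23.4% of all tested genes. The H3K27 demethylase gene KDM6B was lower in both (-0.32 and -0.50). In shAPT1 KMT2D (-0.44), WDR5 (-0.37) and PSIP1 (0.29) also passed, and in APT1wt the cohesin gene RAD21 (0.48), PSIP1 (0.44) and NSD1 (0.39). WDR5 passed as lower in APT1wt too (-0.19). All these sizes are log2 fold changes.

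Of 9 tested genes reported as HOX targets, 2 were higher and 4 lower in shAPT1, where 24.4% of all tested genes were called, and 2 higher and 3 lower in APT1wt, where 23.4% were. ITGB3, the integrin beta 3 gene reported as a HOXD3 target, was at 0.624, 1.51 and 1.40 TPM in the control libraries, 3.27, 2.96 and 3.91 in shAPT1, and 3.19, 3.06 and 3.79 in APT1wt. It rose in shAPT1 (1.46 ± 0.22, edgeR adjusted p = 0.000325) and in APT1wt (1.38 ± 0.23, 0.000548), while HOXD3 had -0.38 and -0.79. NRG1, which encodes an ERBB receptor ligand, rose by 0.99 and 0.81 and the cell cycle inhibitor gene CDKN1A fell by 1.02 and 0.59 on the log2 scale. PLAUR, the urokinase receptor gene, fell by 0.72 in shAPT1 and by 0.42 in APT1wt, and ANGPTL2 fell by 0.54 in APT1wt.

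Upstream regulators of HOX genes were tested for 8 of 13 listed, the others being too low. CDX1 had no read in any library and CDX2, a homeobox activator of central HOX genes, stayed at or under 0.291 TPM. RARB, the retinoic acid receptor beta gene, was at 0.0429, 0.0959 and 0.150 TPM in the control libraries, 0.732, 0.605 and 0.647 in shAPT1, and 0.0837, 0.0480 and 0.0939 in APT1wt. It was higher in shAPT1 by 2.60 ± 0.44 (edgeR adjusted p = 0.000719), at a level under 1 TPM. RARB entered the test through the shAPT1 libraries, where it was highest, so its call is a description and supports nothing. RXRA fell in shAPT1 by 0.51. In APT1wt the retinoic acid carrier CRABP2 (-0.80) and the retinoic acid hydroxylase CYP26B1 (-0.48) fell and RARG rose (0.49). All these sizes are log2 fold changes.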

How the data were processed

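Per the submitters' processing notes, FastQC, Salmon and DESeq2 were used with build GRCh38.p10, with no versions given. The authors deposited, for each library, Salmon's estimated counts and TPM for 199324 transcripts, and a table of values for the whole series scaled between libraries, by a method not given in the sources used here. The deposited scaled table (a signal, not counts) served as an alternative only, on the log2(value + 1) scale. Estimated counts and TPM were summed per gene, and counts rounded. edgeR 4.0.16 (R 4.3.3) fitted all 9 libraries with TMM scaling and filterByExpr, and quasi-likelihood tests were adjusted by Benjamini-Hochberg at 0.05 over 15233 genes. SE was the log2 fold change divided by the root of F. limma 3.58.1 and DESeq2 1.42.0 gave alternatives. The fit was tested on simulated data. Library totals were 12381931 to 18667383. Members, lists and tests were chosen with earlier results of these data known. Named were the 5 members of highest mean TPM and members past 0.05, and up to 4 called genes of each other list with the largest change per comparison with control. Flanking genes were described, and LYPLA1 given as the label check. Replicates differed beyond sampling noise (chi-square per gene 2.1 to 18.3), so none was counted as a copy. Transcripts were matched to GENCODE 29 by identifier and version (196256 of 199324, and all 110 member transcripts), which also gave gene coordinates (GRCh38). Some listed genes and sequences are not reported here.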

Additional observations from a re-analysis of the deposited data

How the results depend on the processing

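In APT1wt against control, HOXD3 stayed below 0 in all 22 alternatives, 1 of which was chosen after seeing the data, and HOXC6 in the 19 that gave it a value. The count of HOX genes lower in APT1wt than in control, 2 in the main analysis, was 1 with DESeq2 (HOXC6 had no adjusted p), with a minimum of 20 reads in 3 libraries, with a transcript length offset, with the deposited table, with protein-coding transcripts only, with only the 2 groups compared and with the replicate block, 0 in the test against a change of 1.5-fold, and 0 to 3 when 1 library was left out. The count higher in shAPT1 than in APT1wt, 0 in the main analysis, was 2 with library totals alone (HOXB3 and HOXD1), 1 without a filter (HOXC8), 1 with only the 2 groups compared (HOXB3), and 0 to 2 when 1 library was left out. The count lower there was 1 without a filter (HOXB13). With protein-coding transcripts only, the summed TPM of the 39 genes was 18.7 in control and 18.7 in shAPT1, of cluster B 10.1 in control, and of cluster C 1.63 in control and 1.27 in shAPT1; fewer transcripts enter these sums. The cause of the other changes was not tested. Among single genes, HOXD3 in APT1wt had -0.56 (adjusted p = 0.219) in the deposited table, and HOXC6 -2.27 to -2.31 with length taken into account. Deviations from the group means had correlations of -0.0509 to 0.103 between same-numbered libraries and -0.105 to 0.0712 between differently numbered ones. With 3 libraries in each group, this cannot tell whether the numbers pair libraries, and the sources used here do not say. In edgeR the replicate block moved HOXC6 to an adjusted p of 0.0502. Of the values of single genes under the alternatives, 434 kept their side of the threshold, 6 came to pass and 13 no longer passed. Depth limits the rest: 32 of the 39 members had too few reads for the main test.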
